A study of Mus musculus with 48 samples.

Results

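RNA levels of 10 neural stem and glial progenitor genes were followed through mouse tumors that model Group 3 medulloblastoma, a Myc-driven childhood tumor of the cerebellum. The genes were taken by symbol, with no threshold on a measured value, but they were chosen with earlier results of these data known. They were the regulators Sox2, Sox9, Msi1 and Olig2, the structural and lipid-binding genes Nes, Vim and Fabp7, and the surface protein genes Prom1, Pdgfra and Cspg4. All 10 had a count in every one of the 48 libraries, out of 34591 gene symbols, and all 10 passed the low-count filter in every comparison.

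Neural stem cells and radial glia keep dividing while holding back differentiation, and their SOX and bHLH transcription factors set which daughter lineages can form. SOX2 keeps stem cells undifferentiated, SOX9 takes part in gliogenesis, and the RNA-binding protein Musashi 1 (Msi1) marks neural stem cells. Nestin (Nes) and vimentin (Vim) are intermediate filament proteins of these cells, FABP7 is the fatty acid binding protein of radial glia, and prominin 1 (Prom1, CD133) is a membrane protein used to sort stem-like brain tumor cells. OLIG2, the growth factor receptor PDGFRα (Pdgfra) and the proteoglycan NG2 (Cspg4) mark oligodendrocyte precursors, and NG2 and PDGFRα are also found on vascular mural and meningeal cells.

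Every group carried extra Myc, per the labels. The p53-/-;p18-/- genotype (loss of Trp53 and Cdkn2c) was labelled for 44 libraries and a wild-type genotype for the other 4. Line 19251 supplied 8 tumors overexpressing Gfi1 (Gfi1 OE) and 6 control tumors. The wild-type libraries carry the label WT GNP Myc Gfi1. GNP stands in the labels for granule neuron precursors, the cerebellar cells that become granule neurons. The Gfi1 RNA of these libraries goes against part of that label, so the name WT GNP is used here as a label only. In set 1, lines 19251, 19554 and 19568 each gave 3 tumors with Ezh2 knocked out by Cas9 (Ezh2 KO) and 3 with Cas9 alone. In set 2, line 19568 gave 3 libraries each of Ezh2 KO + Ezh2 OE (the knockout with Ezh2 overexpressed), Ezh2 KO, Ezh2 OE and Cas9. Per the labels, retrovirally infected, sorted tumorsphere cells were grown in the cerebral cortex of CD-1 nu/nu mice. Nude mice lack T cells but keep their other immune cells and their own brain tissue, so that RNA of the host can enter a tumor library. The labels do not say whether a line is a clone or whether tumors of one group came from separate infections, and p-values therefore measure the spread between these libraries.

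The libraries held 2687641 to 94733334 counts on genes (median 29416585.5). Levels are given as CPM, a gene's count in every 1000000 counts on genes, which is not scaled by gene length and compares samples, not genes. GFI1 is a zinc finger repressor and EZH2 the methyltransferase of Polycomb repressive complex 2. Gfi1 RNA was at 106.7 to 591.6 CPM in Gfi1 OE tumors and 0 to 0.273 CPM in control tumors. The libraries labelled WT GNP Myc Gfi1 had 0.232 to 0.829 CPM of it, which goes against their label. The granule neuron progenitor gene Atoh1 was at 0 in those 4 libraries. It was also at 0 in every library labelled Cas9 of set 2, so that it does not set the WT GNP libraries apart. Trp53 RNA was at 34.7 to 46.4 CPM in the libraries labelled WT GNP, 34.7 to 46.2 CPM in control and 16.0 to 34.5 CPM in Gfi1 OE tumors. Cdkn2c RNA was at 11.7 to 14.4, 7.05 to 26.6 and 6.53 to 20.8 CPM in the same order. These RNA levels do not check the labelled genotypes. Ezh2 RNA was at 38.0 to 79.2 CPM in the 9 Ezh2 KO and 32.8 to 88.2 CPM in the 9 Cas9 tumors of set 1, which does not check an edit in the DNA. The arms overlapped in lines 19251 and 19554. In line 19568 of set 1 they did not, at 38.0 to 48.7 CPM in Ezh2 KO and 68.0 to 83.4 CPM in Cas9 tumors. In set 2 Ezh2 was at 46.85 to 55.7 CPM in the 3 Ezh2 KO libraries and 91.9 to 93.5 CPM in the 2 Cas9 libraries used. Another 3 libraries stood apart. Gfi1 OE replicate 5 had the lowest depth and 71.6% unaligned reads. Cas9 replicate 1 of line 19251 had 9.91 CPM of Myc and a summed level of 37.5 CPM over 10 cell cycle genes, against 2811 and 3202 CPM in the other Cas9 tumors of that line, and 4941 CPM over 10 cortical neuron genes, against 31.1 and 47.9 CPM. Ezh2 OE replicate 1 of set 2 had 1086 CPM over 10 oligodendrocyte genes, against 54.4 and 180.0 CPM in the other Ezh2 OE tumors. From set 2, 1 library of the group Ezh2 KO + Ezh2 OE (replicate 3) and 1 of the group Cas9 (replicate 1) were not used, because the numbers in their titles contradict those of their files. Their Ezh2 levels, 101.1 CPM in the library labelled Ezh2 KO + Ezh2 OE and 5128 CPM in the library labelled Cas9, also went against the labels.

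The sequences below are the RefSeq windows from 250 bases before to 50 bases after the transcription start (build GRCm38.p6) of 3 genes that were lower in Gfi1 OE tumors and of Fabp7, which was not called there. They are shown because Gfi1 binds DNA at a core of AATC, and capitals mark AATC or, on the other strand, GATT. The windows are Sox2 at chr3:34649745-34650044 (plus strand), Vim at chr2:13574061-13574360 (plus), Nes at chr3:87970843-87971142 (plus) and Fabp7 at chr10:57784673-57784972 (plus).
Sox2: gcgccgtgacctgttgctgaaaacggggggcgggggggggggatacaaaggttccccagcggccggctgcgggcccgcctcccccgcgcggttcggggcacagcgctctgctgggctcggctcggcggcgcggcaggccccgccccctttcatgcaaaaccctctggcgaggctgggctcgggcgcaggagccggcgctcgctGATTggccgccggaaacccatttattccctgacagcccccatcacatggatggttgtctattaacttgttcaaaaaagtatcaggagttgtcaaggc
Vim: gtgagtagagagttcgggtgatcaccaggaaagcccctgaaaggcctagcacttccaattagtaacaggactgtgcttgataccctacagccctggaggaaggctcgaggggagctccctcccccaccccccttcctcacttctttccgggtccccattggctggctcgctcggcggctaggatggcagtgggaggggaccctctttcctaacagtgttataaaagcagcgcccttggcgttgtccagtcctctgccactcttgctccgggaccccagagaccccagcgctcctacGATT
Nes: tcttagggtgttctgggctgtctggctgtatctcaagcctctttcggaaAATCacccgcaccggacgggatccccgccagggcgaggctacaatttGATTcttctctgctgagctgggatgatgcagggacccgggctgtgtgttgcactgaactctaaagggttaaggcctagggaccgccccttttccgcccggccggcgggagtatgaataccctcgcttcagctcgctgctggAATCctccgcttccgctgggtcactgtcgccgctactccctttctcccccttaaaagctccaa
Fabp7: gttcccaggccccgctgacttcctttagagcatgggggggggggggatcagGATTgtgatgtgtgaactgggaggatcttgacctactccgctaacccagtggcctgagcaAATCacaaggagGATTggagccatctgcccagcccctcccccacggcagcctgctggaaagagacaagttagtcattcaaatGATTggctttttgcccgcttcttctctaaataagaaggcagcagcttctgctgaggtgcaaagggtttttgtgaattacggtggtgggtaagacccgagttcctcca
The Sox2 and Vim windows each held the core at 1 place, the Nes window at 3 and the Fabp7 window at 4. In all, 8 of the 10 genes matched the table, in 9 windows, and all 9 windows held the core, as did 73.1% of all 32851 windows. The longer form AATCAC or GTGATT occurred in the Nes and Fabp7 windows and in 1 of the windows of Prom1, which has 2, against 10.4% of all windows. A match describes letters and is not a binding site. The windows also differed in CG pairs, with 27 in Sox2, 25 in Olig2, 18 in Nes, 17 in Cspg4 and 11 in Vim. Fabp7 had 6, Pdgfra 5 and the 2 Prom1 windows 4 and 10, against a median of 7 over all windows. Sox9 and Msi1 had no window in the table.

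The first comparison set Gfi1 OE tumors against control tumors of line 19251 and addresses what Gfi1 does to this tumor line. In all, 6 of the 10 genes were lower in Gfi1 OE tumors and none was higher, by edgeR's quasi-likelihood test at an adjusted p under 0.05 over 17024 genes. Of all genes tested, 13.5% were called lower and 11.1% higher (24.6% in either direction). The 6 were Sox2, Msi1, Olig2, Nes, Vim and Pdgfra. The median log2 change of the 10 genes was -1.65, against -0.03 over all genes tested. In 3 of the 10, Sox2, Msi1 and Vim, no Gfi1 OE tumor overlapped a control tumor, which held for 10.4% of all genes tested.

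Among the regulators, Sox2 was at 2.23 (lowest), 3.73 (median) and 7.49 CPM (highest) in the 8 Gfi1 OE tumors and at 11.2, 48.2 and 130.2 CPM in the 6 control tumors. Every Gfi1 OE tumor lay below every control tumor, although the control tumors spread over more than a factor of 10. Sox2 averaged 3.80 ± 1.69 CPM (SD, n = 8) in Gfi1 OE and 54.4 ± 43.3 CPM (n = 6) in control tumors, a log2 change of -3.75 (SE 0.49, edgeR adjusted p = 8.8e-05). The lowest Gfi1 OE value rested on 6 counts. Sox2 lies within Sox2ot, a long noncoding gene on the same strand, and counts of the pair may be shared. Sox2ot was at 0.321, 1.24 and 7.07 CPM (lowest, median, highest) in Gfi1 OE tumors and at 2.23, 18.9 and 28.2 CPM in control tumors.

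Msi1 was at 0.739, 1.19 and 8.93 CPM (lowest, median, highest) in Gfi1 OE tumors and at 12.9, 24.2 and 36.4 CPM in control tumors. Its groups did not overlap. Gfi1 OE replicates 5 and 7, at 8.93 and 7.46 CPM, stood above the other 6, which lay between 0.739 and 1.38 CPM. The log2 change of Msi1 was -3.05 (SE 0.64, adjusted p = 0.0029), with means of 2.88 ± 3.31 CPM in Gfi1 OE and 24.4 ± 8.2 CPM in control tumors, and -4.40 (adjusted p = 8.9e-07) without replicates 5 and 7.

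Olig2 was at 1.28, 1.54 and 4.36 CPM (lowest, median, highest) in Gfi1 OE tumors and at 0.139, 4.34 and 87.1 CPM in control tumors. The control tumors enclosed the Gfi1 OE range, with 2 of 6 below every Gfi1 OE tumor. The log2 change was -3.27 (SE 1.04, adjusted p = 0.032) and rested on control replicate 5. Without that library it was -1.26 (adjusted p = 0.29). Leaving out both Gfi1 OE replicates 5 and 7, or any one of Gfi1 OE replicates 1, 2, 3, 6 and 8, also ended the call, with adjusted p between 0.055 and 0.059.

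Sox9 was at 2.18, 3.17 and 13.5 CPM (lowest, median, highest) in Gfi1 OE tumors and at 6.94, 11.2 and 22.3 CPM in control tumors. Of the 8 Gfi1 OE tumors, 6 lay below every control tumor, and replicates 5 and 7, at 10.8 and 13.5 CPM, lay among the controls. Sox9 was not called, with a log2 change of -1.23 (SE 0.51, adjusted p = 0.091). Without both of those libraries it was -2.14 (adjusted p = 0.00049), and without replicate 5 or replicate 7 alone -1.54 (0.022) or -1.62 (0.025).

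**Figure D1:**
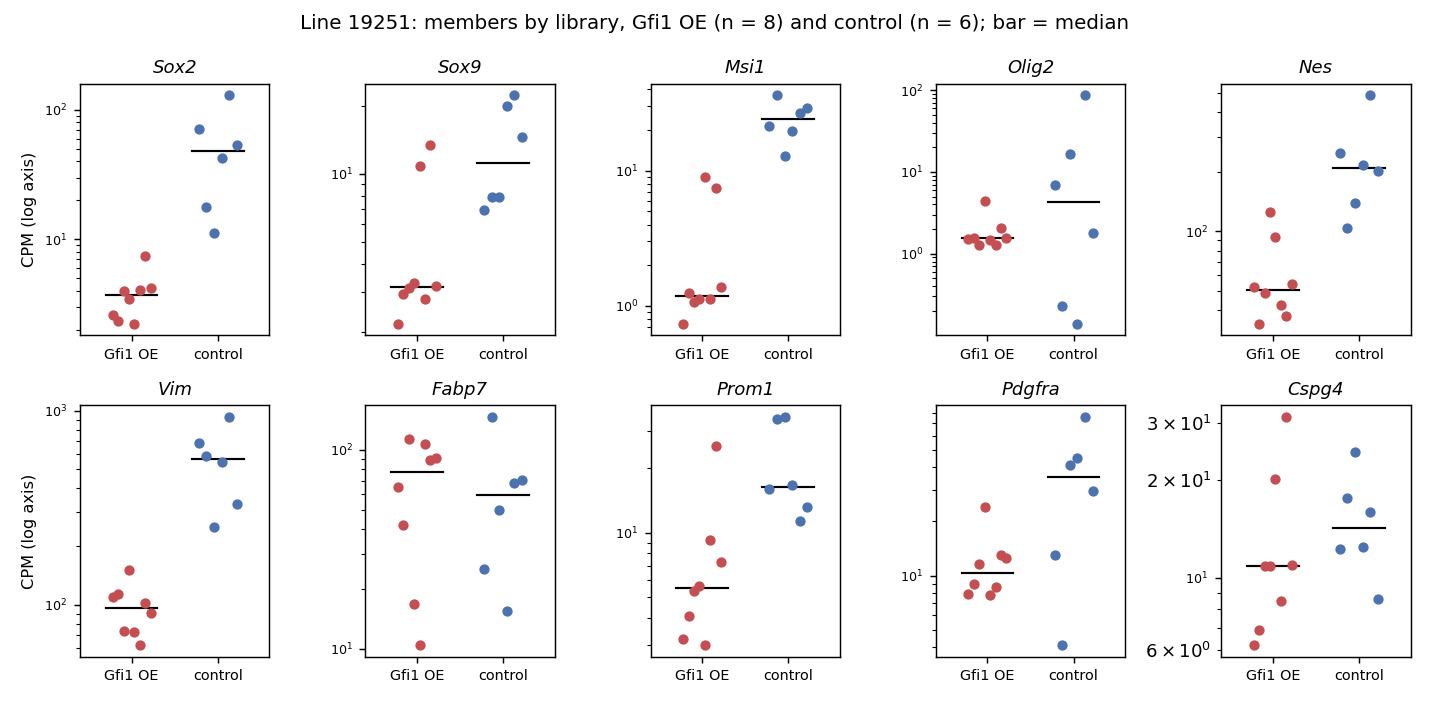
CPM of the 10 genes in each library of line 19251, Gfi1 OE (8, red) left and control (6, blue) right, on a log axis that differs between panels; bars are medians. Sox2, Msi1 and Vim separate fully (Sox2 2.23 to 7.49 CPM in Gfi1 OE and 11.2 to 130.2 CPM in control tumors), whereas the Fabp7 and Cspg4 ranges overlap.

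Of the filament and lipid-binding genes, Vim was at 61.9, 96.4 and 151.6 CPM (lowest, median, highest) in Gfi1 OE tumors and at 253.3, 563.9 and 930.6 CPM in control tumors. No libraries overlapped, and Vim had the lowest adjusted p of the 10 genes (log2 change -2.44, SE 0.29, adjusted p = 3.6e-05). Nes was at 34.3, 50.8 and 124.9 CPM in Gfi1 OE tumors and at 104.0, 209.1 and 485.7 CPM in control tumors. Only Gfi1 OE replicate 4 reached into the control range. The log2 change of Nes was -1.82 (SE 0.39, adjusted p = 0.0033), with means of 61.2 ± 31.7 CPM in Gfi1 OE and 232.4 ± 134.7 CPM in control tumors.

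Fabp7 was at 10.4, 77.1 and 113.2 CPM (lowest, median, highest) in Gfi1 OE tumors and at 15.5, 59.2 and 146.7 CPM in control tumors, and the groups covered nearly the same range. It was not called (log2 change 0.21, 95% interval -0.91 to 1.33, adjusted p = 0.81). The interval holds both a fall and a rise by a factor above 1.5, so that equal levels were not shown.

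Of the surface protein genes, Pdgfra was at 7.81, 10.3 and 24.0 CPM (lowest, median, highest) in Gfi1 OE tumors and at 4.09, 35.2 and 76.2 CPM in control tumors. Of the 6 control tumors, 4 lay above every Gfi1 OE tumor. The log2 change was -1.47 (SE 0.47, adjusted p = 0.032), but without control replicate 5 it was -1.04 (adjusted p = 0.11). The call also ended without control replicate 4, without Gfi1 OE replicate 1, 2 or 6, or without Gfi1 OE replicates 5 and 7 together, with adjusted p between 0.055 and 0.062.

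Prom1 was at 2.98, 5.49 and 25.5 CPM (lowest, median, highest) in Gfi1 OE tumors and at 11.4, 16.4 and 34.8 CPM in control tumors. All Gfi1 OE tumors but replicate 7 lay below every control tumor. With a log2 change of -1.27 (SE 0.45, adjusted p = 0.052) Prom1 was not called, and DESeq2 did call it (adjusted p = 0.020), as did edgeR with RLE size factors (0.0498) and without Gfi1 OE replicate 7 (-1.82, adjusted p = 0.0011), control replicate 5 (0.049) or control replicate 6 (0.046).

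Cspg4 was at 6.20, 10.9 and 31.3 CPM (lowest, median, highest) in Gfi1 OE tumors and at 8.61, 14.2 and 24.4 CPM in control tumors. Its groups overlapped over most of their range, and Gfi1 OE replicates 5 and 7 were again the highest, at 20.1 and 31.3 CPM. Its log2 change was -0.06 (95% interval -0.87 to 0.76, adjusted p = 0.94), and -0.68 (adjusted p = 0.049) without those 2 libraries, where it was called.

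Gfi1 OE replicates 5 and 7 were set aside after their values had been seen. They were the 2 highest of 8 in Sox9, Msi1 and Cspg4, and they differ in depth and in cell cycle genes. Summed over the 10 cell cycle genes they had 1084 and 3100 CPM, the lowest and the highest of the group. Control replicate 5 was the highest control tumor in Sox2, Sox9, Olig2, Nes, Vim and Pdgfra and also in the summed level of 18 further oligodendrocyte precursor genes, at 1719 CPM, against 327.9 CPM in the lowest control tumor.

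Other genes of these programs were read from 2 further lists, also chosen with earlier results of these data known. Of 19 further neural stem and radial glia genes tested, 9 fell in Gfi1 OE tumors and 0 rose, with a median log2 change of -1.14. By lowest p these were the glutamate transporter Slc1a3 (log2 change -1.71, SE 0.21, adjusted p = 5.0e-05), the hyaluronan receptor Cd44 (-2.54, SE 0.33, adjusted p = 7.5e-05), the hedgehog pathway transcription factor Gli3 (-4.01, SE 0.59, adjusted p = 0.00022) and the matrix protein gene Tnc (-2.42, SE 0.65, adjusted p = 0.014). The Tnc change was -0.62 (adjusted p = 0.032) without control replicate 5. Gli3 averaged 2.01 ± 1.35 CPM in Gfi1 OE and 31.4 ± 21.3 CPM in control tumors. The other 5 that fell, named after their values were seen, were the Notch receptor genes Notch1 and Notch2, the Notch target Hes1, the transcription factor gene Sox1 and the glial filament gene Gfap. Of 18 further oligodendrocyte precursor genes, 2 fell and 1 rose, with a median of -0.48. The endocytic adaptor gene Epn2 fell (log2 change -1.42, SE 0.17, adjusted p = 3.4e-05), Susd5 fell (-2.47, SE 0.79, adjusted p = 0.034), and Nkx2-2, a transcription factor of the oligodendrocyte lineage, rose (1.52, SE 0.47, adjusted p = 0.027). Susd5 lost its call in 7 of 14 refits that each left out 1 library, with -1.30 (adjusted p = 0.16) without control replicate 4 the other losses being those without Gfi1 OE replicate 1, 2, 3, 4, 6 or 8. Nkx2-2 lost it without control replicate 3 (1.39, 0.057) or 4 (1.44, 0.055) and without Gfi1 OE replicates 5 and 7 together (1.33, 0.054), and its change was 2.20 without control replicate 2.

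Marker genes of other cell types moved with the groups as follows, and their part in these results was not tested. Of 10 pericyte and meningeal fibroblast genes 4 rose, with summed levels of 185.7 to 600.5 CPM in Gfi1 OE and 106.1 to 275.6 CPM in control tumors. Of 10 astrocyte genes 1 rose and 2 fell, with 92.7 to 585.6 CPM in Gfi1 OE and 378.5 to 898.2 CPM in control tumors. Of 9 granule neuron progenitor genes 1 rose and 4 fell, with 82.3 to 258.5 CPM in Gfi1 OE and 198.2 to 303.3 CPM in control tumors. None of 9 oligodendrocyte, 10 microglia or 8 endothelium genes was called, and 1 of 10 cortical neuron genes fell. No gene of these lists was at 0 in all libraries of either group. Myc was at 380.5 to 780.8 CPM in Gfi1 OE and 439.4 to 1454 CPM in control tumors. Though the ranges overlapped, Myc was called lower in Gfi1 OE tumors (log2 change -0.73, SE 0.24, adjusted p = 0.036). The part of Myc in these results was not tested. In bulk tumors, fewer cells of a type and less RNA per cell cannot be told apart.

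The second comparison set the libraries labelled WT GNP Myc Gfi1 against the Gfi1 OE tumors of line 19251. By their labels both groups overexpress Gfi1 and differ in genotype and source, but Gfi1 RNA was low in the libraries labelled WT GNP, so that the values compare libraries with low and with high Gfi1 RNA. In the libraries labelled WT GNP 7 of the 10 genes were higher and 1 was lower. Of all 17278 genes tested, 48.7% were called (21.9% higher, 26.8% lower). The median log2 change of the 10 genes was 2.24, against -0.08 over all genes tested. Myc RNA differed too, at 187.7 to 335.3 CPM in the libraries labelled WT GNP and 380.5 to 780.8 CPM in Gfi1 OE tumors. These ranges did not overlap (log2 change -1.20, SE 0.23, adjusted p = 0.0010). Labelled genotype, labelled source, Gfi1 RNA level and Myc RNA level cannot be told apart here. The comparison shares its Gfi1 OE libraries with the first.

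The largest of these log2 changes were those of Sox9 and Cspg4. Sox9 was at 89.3, 71.6, 77.6 and 68.9 CPM in the 4 WT GNP libraries and at 2.18, 3.17 and 13.5 CPM (lowest, median, highest) in the Gfi1 OE tumors, with no overlap. Sox9 averaged 76.8 ± 9.07 CPM in WT GNP and 5.22 ± 4.33 CPM in Gfi1 OE tumors (log2 change 3.90, SE 0.50, edgeR adjusted p = 3.6e-05). Cspg4 was at 188.2, 206.1, 216.5 and 211.0 CPM in the libraries labelled WT GNP and averaged 13.2 ± 8.47 CPM in Gfi1 OE tumors. The libraries labelled WT GNP lay close together and all lay above the Gfi1 OE tumors (log2 change 3.91, SE 0.40, adjusted p = 6.5e-06). Without Gfi1 OE replicates 5 and 7 the log2 change was 4.77 for Sox9 and 4.55 for Cspg4.

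Markers of other cell types moved in this comparison as well, and their part in the results was not tested. Of 10 astrocyte genes 2 were higher and 6 lower in the libraries labelled WT GNP, with sums of 605.8 to 667.1 CPM there and 92.7 to 585.6 CPM in Gfi1 OE tumors. Of 10 pericyte and meningeal fibroblast genes the receptor gene Pdgfrb was higher (63.8 CPM in WT GNP and 19.6 CPM in Gfi1 OE tumors), and the transporter genes Slc6a13 and Abcc9 were lower, with sums of 214.7 to 254.2 CPM in WT GNP and 185.7 to 600.5 CPM in Gfi1 OE tumors. Of 9 oligodendrocyte genes 2 were lower, and of 8 endothelium genes 2 were higher and 2 lower. Of 10 cortical neuron genes 1 was higher and 3 lower, of 10 microglia genes 1 was higher and 1 lower, and of 10 granule neuron progenitor genes 6 were lower.

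Pdgfra averaged 58.1 ± 18.7 CPM in WT GNP and 11.8 ± 5.35 CPM in Gfi1 OE tumors (log2 change 2.26, SE 0.26, adjusted p = 1.7e-05). Olig2, at 12.4, 13.4, 4.0 and 6.65 CPM in the libraries labelled WT GNP, was also higher (2.22, SE 0.36, adjusted p = 0.00026), and its lowest WT GNP library lay below the highest Gfi1 OE tumor. Sox2 averaged 18.9 ± 3.46 CPM in WT GNP and 3.80 ± 1.69 CPM in Gfi1 OE tumors (log2 change 2.25, adjusted p = 2.4e-05). Msi1 averaged 14.8 ± 1.91 CPM in WT GNP and 2.88 ± 3.31 CPM in Gfi1 OE tumors (2.45, adjusted p = 0.010), and the log2 change of Msi1 was 3.10 without Gfi1 OE replicate 7 and 3.78 without replicates 5 and 7. Vim averaged 212.9 ± 34.9 CPM in WT GNP and 97.0 ± 29.1 CPM in Gfi1 OE tumors (1.09, adjusted p = 0.00041). In 6 of the 10 genes, the 7 higher ones other than Olig2, the groups did not overlap, against 37.0% of all genes tested.

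Fabp7 was the gene that was lower, at 18.9, 30.6, 9.59 and 14.1 CPM in the libraries labelled WT GNP and 66.9 ± 39.9 CPM (SD, n = 8) in Gfi1 OE tumors (log2 change -1.92, SE 0.58, adjusted p = 0.016). The groups overlapped, and the call ended without WT GNP replicate 3 (-1.70, adjusted p = 0.053) or replicate 4 (-1.81, 0.052). Nes (log2 change -0.05, 95% interval -0.78 to 0.67) and Prom1 (0.08, -1.02 to 1.18) were not called.

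**Figure D2:**
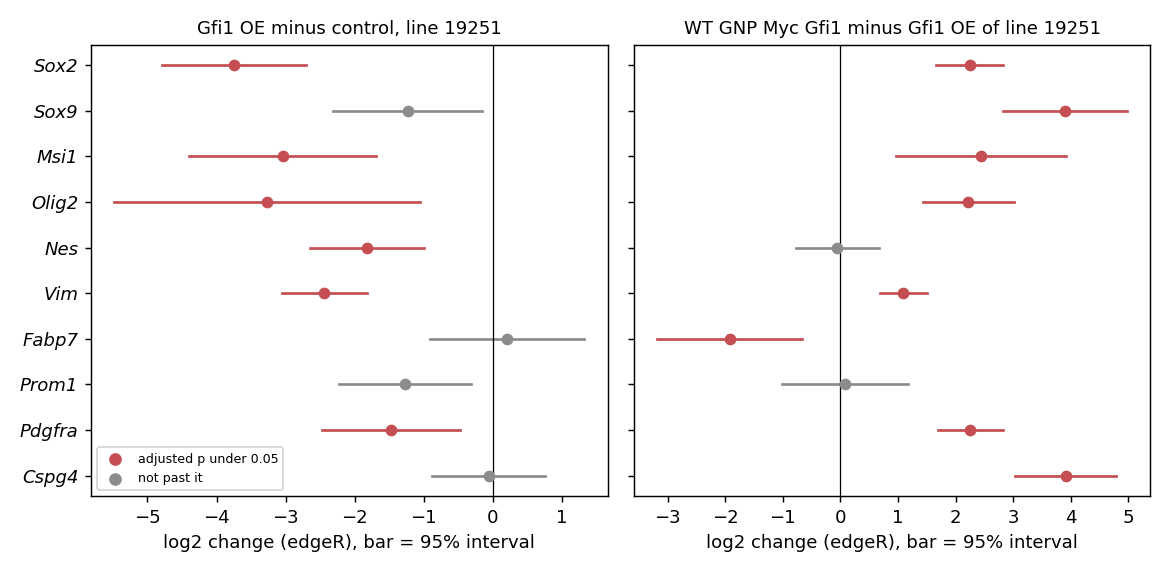
Log2 changes of the 10 genes with 95% intervals, Gfi1 OE minus control in line 19251 (left) and WT GNP Myc Gfi1 minus Gfi1 OE of line 19251 (right); red marks an adjusted p under 0.05. On the left 6 genes lie below 0, and on the right 7 lie above 0 and Fabp7 below it. Gfi1 OE libraries enter both panels.

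In the further lists, 7 neural stem and radial glia genes were higher and 5 lower in the libraries labelled WT GNP out of 18 tested. The lowest p belonged to the Notch target Hes5 (log2 change -5.24, adjusted p = 4.1e-06), the transcription factor genes Sox21 (-3.72, 5.0e-06) and Sox3 (-5.10, 1.2e-05), all lower, and Hes1, which was higher (2.66, 5.8e-06). Without WT GNP replicate 2 the changes of Hes5 and Sox3 were -5.95 and -5.80. Of 18 oligodendrocyte precursor genes 10 were higher and 5 lower. The matrix gene Matn4 averaged 121.1 ± 11.04 CPM in WT GNP and 0.983 ± 0.705 CPM in Gfi1 OE tumors (log2 change 7.23, adjusted p = 2.0e-08). Susd5 (5.23, 4.3e-06) and Epn2 (1.47, 1.1e-05) were higher, and the transcription factor gene Sox8 was lower (-2.0, 1.6e-06).

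The WT GNP levels were also set beside those of the 6 Ezh2 KO tumors of line 19568 in sets 1 and 2. The ranges overlapped in 8 of the 10 genes and did not in Prom1 and Pdgfra, a share near that of all genes tested, of which 21.3% did not overlap. Sox9 was at 68.9 to 89.3 CPM in the libraries labelled WT GNP and 50.9 to 94.5 CPM in those 19568 tumors, and Cspg4 at 188.2 to 216.5 CPM in the libraries labelled WT GNP and 172.6 to 289.5 CPM in those tumors. Pdgfra was at 41.8 to 84.5 CPM in the libraries labelled WT GNP and 86.1 to 185.6 CPM in those tumors. This was set side by side after the values were seen, with no test. The granule neuron progenitor list summed to 19.3 to 23.7 CPM in the libraries labelled WT GNP and to 39.6 to 59.7 CPM in those tumors, against 82.3 to 258.5 CPM in the Gfi1 OE tumors of line 19251.

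**Figure D3:**
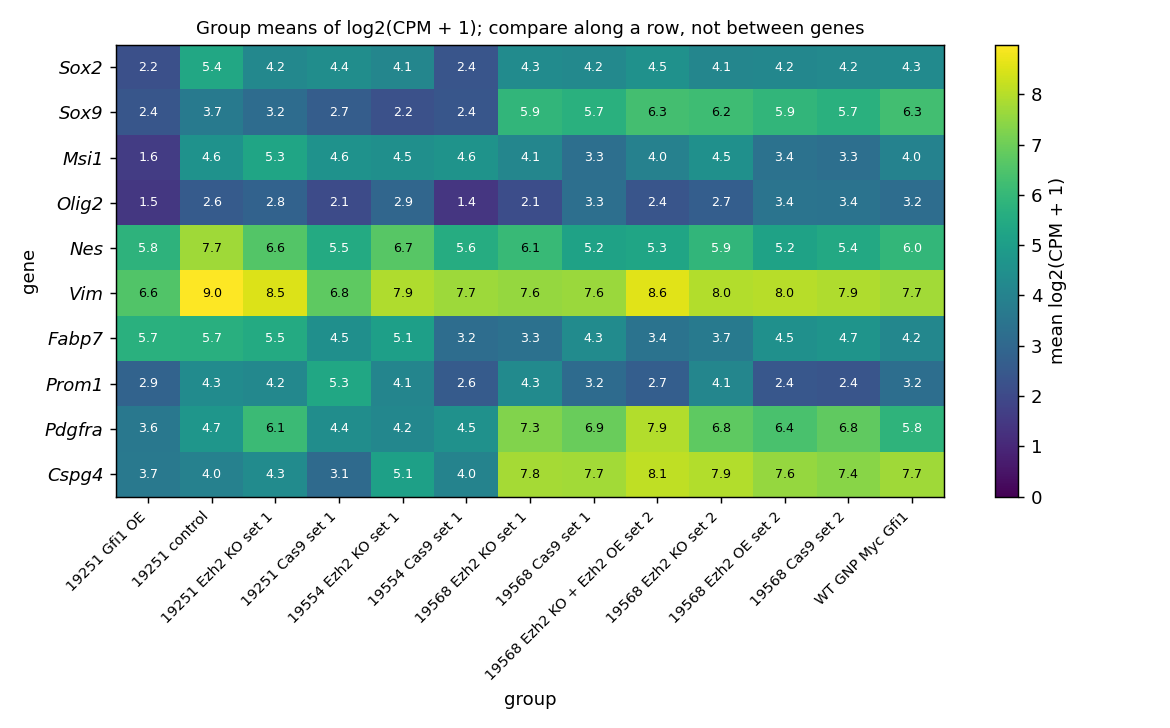
Mean log2(CPM + 1) of the 10 genes (rows) in the 13 groups (columns), printed in each cell; rows are compared along the groups only. Sox9 and Cspg4 are high in every group of line 19568 and in WT GNP Myc Gfi1 and low in lines 19251 and 19554, and Sox2 and Msi1 are low in Gfi1 OE.

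The third question was how the lines themselves differ, read from Cas9 tumors of line 19568 against the mean of those of lines 19251 and 19554. Of the 10 genes 2 were higher in line 19568, Cspg4 and Sox9, and none was lower, against 3.07% and 1.17% of 18514 genes (4.25% in either direction). Of the genes edgeR called 72.4% were higher, against 48.2% of the 1823 genes DESeq2 called. Cspg4 was at 212.7, 203.8 and 215.9 CPM in line 19568, against 12.8, 8.02 and 4.19 CPM in line 19251 and 5.55, 11.8 and 50.4 CPM in line 19554. It averaged 210.8 ± 6.23 CPM (SD, n = 3) in line 19568 and 15.5 ± 17.5 CPM (n = 6) in the other lines (log2 change 3.89, SE 0.60, edgeR adjusted p = 0.0014; 4.57 without Cas9 replicate 3 of line 19554). Sox9 was at 50.7, 49.8 and 54.98 CPM in line 19568, against 12.4, 4.69 and 2.31 CPM in line 19251 and 0.397, 5.81 and 14.8 CPM in line 19554 (log2 change 2.88, SE 0.74, adjusted p = 0.040). The groups did not overlap in either gene, yet the Sox9 call ended in 12 of 18 refits that each left out 1 library (adjusted p from 0.054 to 0.14).

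Pdgfra and Msi1 did not overlap between the lines either, and were not called. Non-overlap held for 4 of the 10 genes and for 7.48% of all genes tested. Pdgfra was at 132.3, 102.4 and 133.8 CPM in line 19568, against 83.1, 5.20 and 17.2 CPM in line 19251 and 8.997, 13.2 and 86.9 CPM in line 19554 (log2 change 1.69, adjusted p = 0.33). Its highest value in line 19251 came from Cas9 replicate 1, the library with the cortical neuron RNA, and without it the log2 change was 2.61 (adjusted p = 0.038). Msi1 averaged 9.06 ± 3.66 CPM in line 19568 and 25.4 ± 12.8 CPM in the other lines (log2 change -1.54, adjusted p = 0.082). It was called by DESeq2 (adjusted p = 0.0091) and without Cas9 replicate 3 of line 19554 (-1.71, 0.034). In the further lists Matn4 (5.33, adjusted p = 0.0054) and the matrix proteoglycan gene Vcan (1.96, 0.039) were higher in line 19568, 2 of 18 oligodendrocyte precursor genes, and none of 19 neural stem genes was called. Matn4 changed by 6.68 without Cas9 replicate 1 of line 19251 and by 6.17 without Cas9 replicate 3 of line 19554, and the Vcan call ended in 11 of 18 refits that each left out 1 library (adjusted p from 0.055 to 0.16). Markers of other cell types moved as follows, and their part in these results was not tested. Of 10 pericyte and meningeal fibroblast genes 2 were higher in line 19568, the matrix gene Lum (3.23, adjusted p = 0.0057) and the receptor gene Pdgfrb (1.37, adjusted p = 0.049). Their list summed to 166.1 to 287.3 CPM in line 19568, against 54.8 to 221.0 CPM in line 19251 and 90.9 to 319.7 CPM in line 19554. None of 10 oligodendrocyte genes was called, with a median log2 change of 2.55 and sums of 295.9 to 1893 CPM in line 19568, against 77.7 to 1354 CPM in line 19251 and 26.6 to 102.0 CPM in line 19554. Of 10 granule neuron progenitor genes 1, Zic2, was lower (-1.56, adjusted p = 0.025).

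In set 1 each line has a library code of its own in the titles, but lines 19568 and 19251 also have libraries under other codes. Over the 12 libraries of set 2, all of line 19568, Cspg4 was at 158.1 to 323.5 CPM and Sox9 at 47.55 to 100.9 CPM. Over the 14 Gfi1 OE and control tumors of line 19251, Cspg4 was at 6.20 to 31.3 CPM and Sox9 at 2.18 to 22.3 CPM. For these 2 genes the levels of lines 19568 and 19251 lay apart under those codes too, while line 19554 has 1 code.

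Ezh2 KO was then set against Cas9 in the 3 lines of set 1, the question of what loss of Ezh2 does to the tumors. Over the 3 lines none of the 10 genes was called, and none passed even an unadjusted p under 0.05; 68 of 16461 genes were called (0.371% higher, 0.0425% lower, 0.413% in either direction), and 1326 passed an unadjusted p under 0.05. Taken over the lines, the 2 arms overlapped in all 10 genes, and 0.194% of genes did not overlap. DESeq2 also called none of the 10. Without Cas9 replicate 1 of line 19251, 215 genes were called, and none of the 10. The log2 changes ran between -0.08 (Sox9) and 0.67 (Cspg4), with 9 of 10 above 0 and a median of 0.41, against -0.06 over all genes. Sox2 was at 11.8, 28.3 and 15.5 CPM in Ezh2 KO and 18.01, 27.3 and 16.6 CPM in Cas9 tumors of line 19251, and at 13.6, 22.4 and 22.6 CPM in Ezh2 KO and 26.8, 12.99 and 15.6 CPM in Cas9 tumors of line 19568. In both lines the arms overlapped.

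In line 19554 Sox2 was at 15.9, 12.6 and 22.6 CPM in Ezh2 KO and 7.81, 6.06 and 1.27 CPM in Cas9 tumors, with no overlap. Its log2 change there was 1.77 (SE 0.54, adjusted p = 0.21, unadjusted p = 0.0053), and DESeq2 called it (adjusted p = 0.034). Olig2 did not overlap in that line either, at 4.63, 13.5 and 4.64 CPM in Ezh2 KO and 2.56, 3.05 and 0.307 CPM in Cas9 tumors (log2 change 1.95, adjusted p = 0.58). Fabp7 was at 69.6, 18.2 and 26.5 CPM in Ezh2 KO and 5.67, 24.5 and 3.81 CPM in Cas9 tumors of that line, which overlapped (1.83, adjusted p = 0.56). With 1 library left out the log2 change of Fabp7 ran from 0.99 (without Ezh2 KO replicate 1) to 3.02 (without Cas9 replicate 2), and that of Olig2 from 1.25 (without Ezh2 KO replicate 2) to 2.37 (without Cas9 replicate 2), with no call. None of the 10 genes was called within line 19554, where 0.481% of genes were called and 14.9% did not overlap, and 1 had an unadjusted p under 0.05. With the replicate number as a block, 17 genes were called in place of 89 and again none of the 10. The difference of the Ezh2 KO effect between the 3 lines was tested itself and called none of the 10 genes (0.0162% of genes were called), with Sox2 at an unadjusted p of 0.034 and an adjusted p of 0.50. DESeq2 likewise called none.

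Within line 19251 none was called (0.259% of genes), none had an unadjusted p under 0.05, and the arms did not overlap in Vim and Cspg4 (12.6% of genes did not overlap). Vim was at 336.0, 341.1 and 410.0 CPM in Ezh2 KO and 26.1, 194.9 and 240.1 CPM in Cas9 tumors (log2 change 1.14, adjusted p = 0.35), the lowest being Cas9 replicate 1. Cspg4 was at 14.2, 35.8 and 13.4 CPM in Ezh2 KO and 12.8, 8.02 and 4.19 CPM in Cas9 tumors (1.14, adjusted p = 0.43). Pdgfra spread widely in both arms, at 57.5, 179.8 and 32.0 CPM in Ezh2 KO and 83.1, 5.20 and 17.2 CPM in Cas9 tumors.

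Within line 19568 the arms did not overlap in Nes and Prom1, as in 18.3% of genes. Nes was at 56.6, 73.1 and 70.0 CPM in Ezh2 KO and 35.5, 35.8 and 33.9 CPM in Cas9 tumors, and Prom1 at 18.3, 19.7 and 18.7 CPM in Ezh2 KO and 8.68, 8.75 and 6.47 CPM in Cas9 tumors. Each arm was narrow in this line. With the spread shared by the 18 libraries neither was called (log2 change 0.92 for Nes and 1.25 for Prom1, adjusted p = 1 for each; 0.027% of genes were called, and no member had an unadjusted p under 0.05). With the 6 libraries of line 19568 fitted alone both were called, Nes at adjusted p = 0.030 and Prom1 at 0.039. With the replicate number as a block, 0 genes were called in place of 5. Msi1 was at 16.7, 11.1 and 23.2 CPM in Ezh2 KO and 13.1, 6.09 and 7.94 CPM in Cas9 tumors, which overlapped (log2 change 0.91, adjusted p = 1). No gene of the further lists was called in set 1 for Ezh2 KO against Cas9, over the lines or within one. On simulated counts the fit within line 19251 called 18% of genes given a log2 change of 1.5, so that a missing call is not a lack of change.

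**Figure D4:**
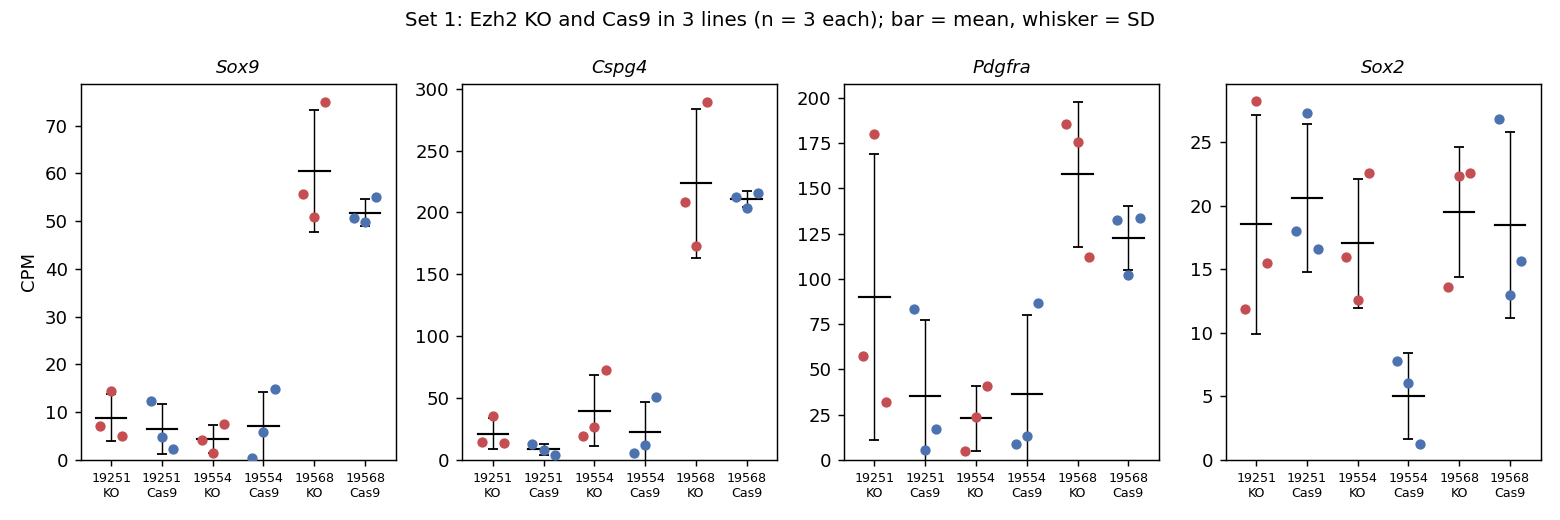
CPM of Sox9, Cspg4, Pdgfra and Sox2 in the 18 libraries of set 1 by line, Ezh2 KO (red) left of Cas9 (blue); bars are means and whiskers the SD of 3 libraries. Both arms of line 19568 lie at or above 49.8 CPM in Sox9 and 172.6 CPM in Cspg4, and Sox2 separates the arms in line 19554.

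Set 2 repeated Ezh2 KO against Cas9 in line 19568 and added Ezh2 put back. Where all 12 libraries are taken as labelled, the 2 libraries whose Ezh2 levels go against their labels are included, 1 as Cas9 and 1 as Ezh2 KO + Ezh2 OE. Ezh2 RNA itself was lower in Ezh2 KO than in Cas9 tumors of set 2 (log2 change -0.95, edgeR adjusted p = 0.0042). Here 1 of the 10 genes, Msi1, rose in Ezh2 KO tumors, and 0 fell, against 5.88% of 17663 genes called higher and 3.23% lower (9.11% in either direction). Msi1 was at 17.7, 27.5 and 20.4 CPM in Ezh2 KO tumors and 9.78 and 7.62 CPM in the 2 Cas9 tumors used, with no overlap. Its log2 change was 1.24 (SE 0.20, edgeR adjusted p = 0.0070). The call ended without Cas9 replicate 3 (1.13, adjusted p = 0.096) and with all 12 libraries taken as labelled (1.02, adjusted p = 0.10).

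Prom1 was at 16.5, 15.5 and 17.97 CPM in Ezh2 KO and 4.70 and 3.80 CPM in Cas9 tumors, again with no overlap. It was not called (log2 change 1.88, SE 0.60, adjusted p = 0.090), and was called by DESeq2 (0.0078), without a low-count filter (2.1e-08) and without Ezh2 OE replicate 1 (1.88, 0.00072), which belongs to neither arm but enters the shared spread. Nes was at 53.5, 61.5 and 65.6 CPM in Ezh2 KO and 43.0 and 41.5 CPM in Cas9 tumors (log2 change 0.41, adjusted p = 0.26). Nes too was called without Ezh2 OE replicate 1 (0.035) and without the filter (0.026). Cspg4 was at 239.0, 273.0 and 227.8 CPM in Ezh2 KO and 173.7 and 158.1 CPM in Cas9 tumors, and was not called (0.48, adjusted p = 0.13). Sox9 was at 58.6, 94.5 and 68.0 CPM in Ezh2 KO and 51.7 and 49.97 CPM in Cas9 tumors, and was not called either (0.44, adjusted p = 0.33). Without the low-count filter both were called (0.0068 and 0.014). In 7 of the 10 genes the 3 Ezh2 KO and 2 Cas9 tumors did not overlap, beside 47.9% of all genes. Msi1, Prom1, Nes, Cspg4 and Sox9 lay higher in Ezh2 KO tumors, whereas Olig2 and Fabp7 lay lower. Olig2 was at 2.58 to 8.53 CPM in Ezh2 KO and 9.46 to 9.99 CPM in Cas9 tumors (log2 change -0.81, adjusted p = 0.56). Fabp7 was at 6.12 to 20.5 CPM in Ezh2 KO and 22.3 to 26.2 CPM in Cas9 tumors (-0.995, adjusted p = 0.55). Markers of other cell types moved too, and their part was not tested. Of 10 microglia genes Tmem119 rose (log2 change 1.97, adjusted p = 0.027), and of 8 endothelium genes Cdh5 rose (0.86, 0.025). Of 10 pericyte and meningeal fibroblast genes Ogn fell (-2.52, 0.0099), and of 8 granule neuron progenitor genes Pax6 rose (2.29, 0.0049). No astrocyte, oligodendrocyte or cortical neuron gene was called. Of the further lists, Cd44 rose (1.02, SE 0.21, adjusted p = 0.018), 1 of 20 neural stem genes, and Vcan rose (0.95, SE 0.15, adjusted p = 0.0068), 1 of 18 oligodendrocyte precursor genes. Both calls ended without Cas9 replicate 2 (adjusted p = 0.10 and 0.080) or 3 (0.11 and 0.068) and with all 12 libraries as labelled (0.61 and 0.53), and that of Cd44 also without Ezh2 KO replicate 2 (0.067) and with the replicate block (0.054).

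Ezh2 OE against Cas9 called none of the 10 genes, and none had an unadjusted p under 0.05. Ezh2 itself was the 1 gene called (0.00566% of genes), 498 genes had an unadjusted p under 0.05, and DESeq2 called none of the 10. Msi1 was at 8.91, 8.95 and 10.2 CPM in Ezh2 OE and 9.78 and 7.62 CPM in Cas9 tumors. Olig2, at 34.1, 5.69 and 4.51 CPM in Ezh2 OE and 9.46 and 9.99 CPM in Cas9 tumors, and Fabp7, at 104.2, 10.4 and 8.70 CPM in Ezh2 OE and 26.2 and 22.3 CPM in Cas9 tumors, were both high in Ezh2 OE replicate 1, the library with 1086 CPM of oligodendrocyte genes, whose part in those values was not tested.

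Ezh2 KO + Ezh2 OE against Ezh2 KO also called none of the 10 genes (1.21% of genes were called, 0.776% higher and 0.43% lower), while 3284 genes had an unadjusted p under 0.05; 5 of the 10 were among them and DESeq2 called none. Msi1 was at 14.7 and 14.5 CPM in Ezh2 KO + Ezh2 OE and 17.7, 27.5 and 20.4 CPM in Ezh2 KO tumors (log2 change -0.52, adjusted p = 0.20). Prom1 was at 6.40 and 4.71 CPM in Ezh2 KO + Ezh2 OE and 16.5, 15.5 and 17.97 CPM in Ezh2 KO tumors (-1.52, adjusted p = 0.22), and Nes at 34.7 and 41.9 CPM in Ezh2 KO + Ezh2 OE and 53.5, 61.5 and 65.6 CPM in Ezh2 KO tumors (-0.59, adjusted p = 0.18). These 3 genes lay lower in the Ezh2 KO + Ezh2 OE tumors with no overlap, and the Ezh2 KO libraries are shared with the comparison before.

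Vim, Pdgfra and, narrowly, Sox2 lay higher with no overlap. Pdgfra was at 260.5 and 230.7 CPM in Ezh2 KO + Ezh2 OE and 86.1, 117.9 and 120.3 CPM in Ezh2 KO tumors (log2 change 1.25, adjusted p = 0.18). Vim was at 408.8 and 354.6 CPM in Ezh2 KO + Ezh2 OE and 218.7, 248.6 and 282.9 CPM in Ezh2 KO tumors (0.67, adjusted p = 0.24). Non-overlap held for 6 of the 10 genes and 44.1% of all genes. Without Ezh2 OE replicate 1, 4 of these 6 were called, Pdgfra (adjusted p = 0.048), Nes (0.023), Prom1 (0.0067) and Vim (0.031). Without Ezh2 OE replicate 3, Pdgfra was called (0.028). Pericyte and meningeal genes, some of whose cells also carry Pdgfra, summed to 326.0 and 405.4 CPM in Ezh2 KO + Ezh2 OE and 178.5 to 254.5 CPM in Ezh2 KO tumors. Of that list only Ogn was called (means 47.9 and 4.88 CPM), and its median log2 change was 0.009. Endothelium genes summed to 109.4 and 129.7 CPM and to 66.0 to 93.1 CPM, with only Cdh5 called. Microglia genes summed to 165.4 and 184.0 CPM and to 71.0 to 153.5 CPM, with none called. The part of these lists was not tested. The receptor gene Notch2 rose (0.61, SE 0.09, adjusted p = 0.021), 1 of 20 neural stem genes, and its call ended in 7 of 10 refits that each left out 1 library (adjusted p from 0.061 to 0.18), with the replicate block (0.60, adjusted p = 0.072) and with all 12 libraries as labelled (0.37, adjusted p = 0.62).

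**Figure D5:**
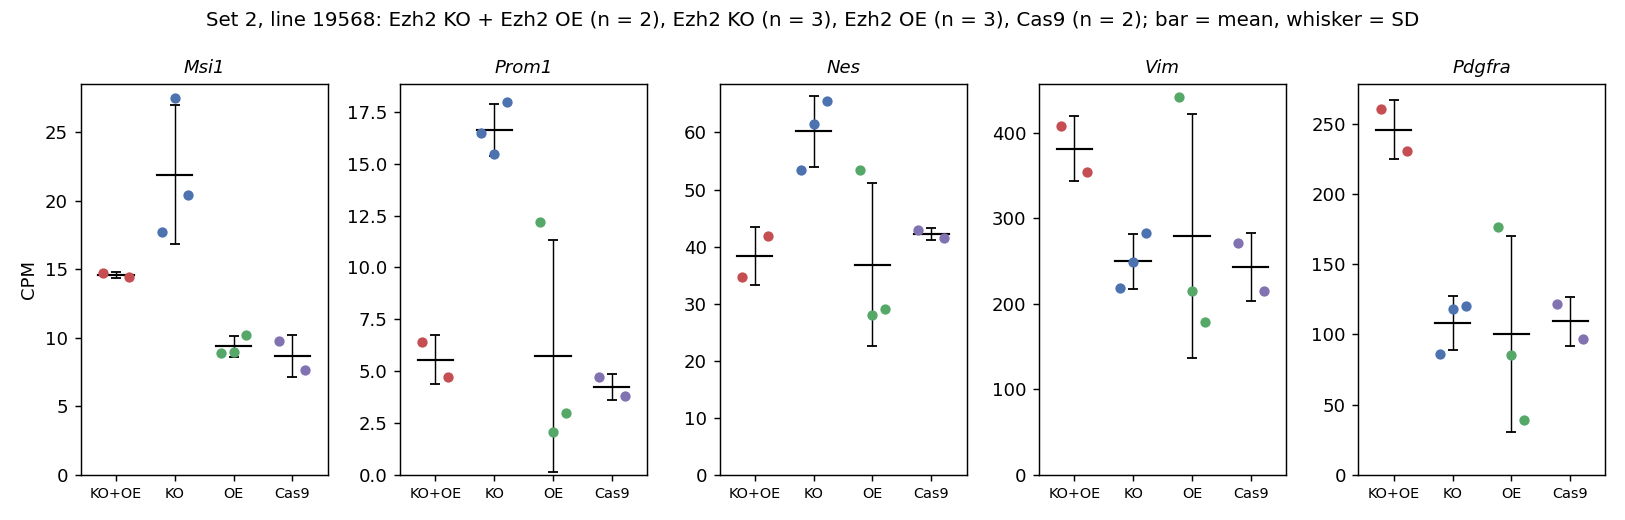
CPM of Msi1, Prom1, Nes, Vim and Pdgfra in the 10 libraries of set 2 used, in the order Ezh2 KO + Ezh2 OE (2), Ezh2 KO (3), Ezh2 OE (3) and Cas9 (2); bars are means and whiskers the SD. Msi1, Prom1 and Nes are highest in Ezh2 KO, and Ezh2 OE replicate 1 stands above the other Ezh2 OE tumors in the 4 panels other than Msi1.

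Across the 13 groups, the 10 genes did not follow 1 pattern. Sox2 and Nes had their highest group mean in the control tumors of line 19251, at 54.4 ± 43.3 and 232.4 ± 134.7 CPM (SD, n = 6), and so had Vim, at 553.5 ± 244.4 CPM. The next Sox2 means, 22.6 ± 4.05 CPM in Ezh2 KO + Ezh2 OE of set 2 and 20.6 ± 5.81 CPM in Cas9 of line 19251, lay within 1 SD of that mean. Sox2 and Msi1 were lowest in Gfi1 OE tumors, at 3.80 ± 1.69 and 2.88 ± 3.31 CPM. Beside Sox2 in Cas9 of line 19554, at 5.05 ± 3.39 CPM, the Gfi1 OE level did not differ beyond the spread. The genes whose group means were most like a member's (Pearson r of mean log2(CPM + 1) over 13 groups, among 15180 genes) were Hhip (r = 0.989) and 1810041L15Rik (0.988) for Sox9, and 4930556M19Rik (0.987) and Col4a1 (0.987) for Cspg4. For Pdgfra they were 9330104G04Rik (0.961) and Lpar1 (0.947), for Msi1 Fam118b (0.964) and Mdm1 (0.956), and for Sox2 Zfp608 (0.913) and Txndc16 (0.909). For Olig2 they were Mmp15 (0.926) and Yes1 (0.885), for Nes Fam59b (0.885) and Taco1 (0.869), and for Vim Cnn3 (0.921) and Adam17 (0.919). For Fabp7 they were Ramp1 (0.877) and Lrrn1 (0.872), and for Prom1 Bend4 (0.926) and Chrm4 (0.902). The groups of 1 line share their cells and some share a set, so that these r values describe the groups and carry no test.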

How the data were processed

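RNA was sequenced from 48 mouse libraries prepared as stranded total RNA, per the labels. The authors deposited raw counts per gene symbol, as whole numbers whose totals differ. The build mm9 and the tools HTSeq, STAR, BWA, CASAVA 1.7, R 3.2.3 and limma stand in the submitters' processing notes, with no role for each; the annotation and the strand setting of the counter are not given in the sources used here. Entries for no gene (19.6% to 42.6% of a file's total), ambiguous (0.438% to 2.26%) and unaligned reads (2.7% to 71.6%) were left out of totals. The 95% intervals come from the fits and cover the spread between libraries.

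Here CPM were computed from the total on genes, and the counts were tested with edgeR 4.0.16 in R 4.3.3 (TMM scaling, filterByExpr, quasi-likelihood F-tests, Benjamini-Hochberg adjustment over all genes tested, adjusted p under 0.05), and this is the test behind each adjusted p unless another is named. Each of the 11 comparisons was fitted on the libraries of its own set: Gfi1 OE with control (12 residual degrees of freedom), WT GNP with Gfi1 OE (10), the 18 libraries of set 1 with a line term (14) or 6 group means (12), and 10 libraries of set 2 (6). The fits were tested on simulated counts with known changes. At a log2 change of 1.5 they called 81% of changed genes for Gfi1 OE, 73% for WT GNP and 67% over the 3 lines. The share was 18% within line 19251 of set 1 and 56% for Ezh2 KO of set 2. At a change of 3 the shares were 93.8%, 94%, 86.7%, 67% and 90% in the same order. DESeq2 1.42.0, RLE size factors, no low-count filter, each library left out, a replicate block, single-line fits and set 2 as labelled were tried. Leaving out Gfi1 OE replicates 5 and 7 together was added after the data were seen. Deviations of libraries with the same replicate number correlated over genes at 0.14 to 0.33 in line 19554 and 0.24 to 0.51 in line 19568 of set 1. Those of libraries with different numbers ran from -0.28 to 0.25 and from -0.44 to 0.37, so that the number was not shown to pair them. The block is given beside their counts. Same-numbered libraries correlated at -0.22 to -0.031 in line 19251 and at -0.65 to 0.48 over set 2. Deviations were taken from the group mean, so that those in groups of 2 libraries mirror each other. These values therefore neither show nor exclude a pairing, and the labels do not say what a number stands for. The titles of all 8 Gfi1 OE libraries give the same replicate number, and numbers 1 to 8 only name them.

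The text names the 10 members, up to 4 called genes of each further list by lowest p, Ezh2, Gfi1, Myc and the 2 genes most like each member. Atoh1, Sox2ot, Trp53 and Cdkn2c were named after their values were seen, and so were the genes named from the marker lists of other cell types. The members and lists were chosen with earlier results of these data known. No 2 libraries of a group agreed within sampling noise (79 pairs, lowest chi-square per degree of freedom 7.91).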

Additional observations from a re-analysis of the deposited data

Results flagged for a closer look

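In 6 of 30 sets of values (10 genes in the control, Gfi1 OE and WT GNP groups) the highest library lay far from its nearest neighbour. The rule used, a gap relative to the range, flags about 1 in 20 sets if values are normal and sets independent. The sets share libraries and were read as CPM without a log scale, so that no excess over chance is drawn from the 6 flagged values. Among Gfi1 OE tumors these were Sox2 in replicate 7 (7.49 CPM, next 4.19), Prom1 in replicate 7 (25.5 CPM, next 9.27), Olig2 in replicate 4 (4.36 CPM, next 2.08) and Pdgfra in replicate 4 (24.0 CPM, next 12.97). Among control tumors these were Olig2 (87.1 CPM, next 16.5) and Nes (485.7 CPM, next 247.1), both in replicate 5. Gfi1 OE replicate 4 also had the highest summed levels of pericyte and meningeal (600.5 CPM), microglia (242.1 CPM) and endothelium genes (106.1 CPM) of its group, and the part of these in its Olig2 and Pdgfra levels was not tested.

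The 2 libraries of set 2 kept out of the comparisons held members above both Cas9 libraries used. The library labelled Ezh2 KO + Ezh2 OE replicate 3 was above them in Sox2 (18.4 CPM), Sox9 (58.3 CPM) and Olig2 (10.9 CPM). Its Ezh2 level was 101.1 CPM, beside 91.9 and 93.5 CPM in the Cas9 libraries used. The library labelled Cas9 replicate 1 had 20.5 CPM of Sox2, 100.9 of Sox9, 13.6 of Msi1, 43.5 of Nes, 315.0 of Vim, 6.93 of Prom1, 227.8 of Pdgfra and 279.5 of Cspg4. Its Ezh2 level was 5128 CPM, beside 5037 and 6576 CPM in the Ezh2 KO + Ezh2 OE libraries used.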

How the results depend on the processing

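Counts of called members moved as follows. DESeq2 called 1 in Ezh2 KO of line 19554 (Sox2) and 2 in Ezh2 KO of set 2. Without a low-count filter 7 were called in Ezh2 KO of set 2, 1 in Ezh2 OE and 4 in Ezh2 KO + Ezh2 OE against Ezh2 KO. With all 12 libraries as labelled 0 were called in Ezh2 KO of set 2, and with line 19568 of set 1 fitted alone 2. Leaving out 1 library gave 1 to 3 members between the Cas9 lines, 0 to 3 in Ezh2 KO of set 2, 0 to 4 in Ezh2 KO + Ezh2 OE, 4 to 8 in Gfi1 OE and 7 to 8 in WT GNP; the cause was not tested. RLE size factors moved no median by over 0.1 and changed 1 member's call, that of Prom1 in Gfi1 OE. A pairing by replicate number was not shown in any line of set 1 or in set 2. The replicate block changed no member's call and ended those of Cd44 and Notch2 in set 2. With it 887 genes were called in Ezh2 KO of set 2, beside 1609 without it, and 45 over the lines of set 1, beside 68. Signs turned for uncalled values only: Sox9 over the 3 lines with the replicate block (0.21), Cspg4 in Ezh2 OE as labelled (-0.077) and Nes in WT GNP without Gfi1 OE replicates 5 and 7 (0.092). With 1 library left out, Cspg4 in Gfi1 OE ran from -0.36 to 0.080, Nes in WT GNP from -0.15 to 0.16, Prom1 there from -0.079 to 0.64 and Sox9 over the 3 lines from -0.27 to 0.32. DESeq2 called more genes in set 1 (289 over the 3 lines, 842, 556 and 76 within lines 19251, 19554 and 19568, 268 for the difference, 1823 between Cas9 lines) and 1058 in Ezh2 KO + Ezh2 OE. Of the calls, DESeq2 had 70.9% higher over the 3 lines (edgeR 89.7%), 36.5%, 69.4% and 73.7% within them (93.75%, 94.4% and 100%) and 50.5% in Ezh2 KO + Ezh2 OE (64.3%). With the block 3, 17 and 0 genes were called within the lines, 1 for the difference and 79 in Ezh2 KO + Ezh2 OE. Lines fitted alone gave 0, 29 and 179. In Ezh2 KO of set 2, 2988 genes were called without the filter and 171 as labelled, and the share of higher calls was 64.6%, or 50.4% without the filter. In Ezh2 OE 146 and 0 genes were called in these settings, and in Ezh2 KO + Ezh2 OE 1761 and 69. With 1 library left out, 51 to 215 genes were called over the 3 lines, 26 to 375 (48 with all libraries), 29 to 400 (89) and 0 to 20 (5) within lines 19251, 19554 and 19568, 398 to 2801 between Cas9 lines, 237 to 2347 in Ezh2 KO and 21 to 704 in Ezh2 KO + Ezh2 OE of set 2. Without Cas9 replicate 2 of line 19251 the 375 calls in that line were 26.9% higher; the 400 and 20 calls came without its Cas9 replicate 1. No paired analysis was possible for Gfi1 OE and WT GNP because the Gfi1 OE titles share 1 number. Low depth limits Gfi1 OE replicate 5.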
